A study of Arabidopsis thaliana with 6 samples.

Results

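The plastid genome of Arabidopsis thaliana was followed through 69 protein-coding genes in sorted root cells. These are all genes for which a probe set of the array carried the name of a single plastid gene, out of 22746 probe sets tested. The gene table lists 78 distinct protein-coding plastid genes, of which 7 lie on 8 probe sets that match 2 gene records and 2 had no named probe set. Each of the 69 genes had 1 probe set. They comprise 20 photosystem genes, 6 cytochrome b6f genes, 6 ATP synthase genes, 10 ndh genes, 15 ribosomal protein genes, 4 RNA polymerase genes and 8 others.

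The arrays came from roots of Col-0 seedlings aged 5 days, 3 from WOX5::GFP sorted cells and 3 from pTMO5::GFP sorted cells, with no treatment named. WOX5 is a homeobox gene known from the quiescent centre, a few rarely dividing cells around which the root's stem cells lie, and TMO5 is a transcription factor gene of young vascular and xylem cells. Groups follow the reporter in the sample titles, because the descriptions and the cell type tag assign quiescent centre and xylem to the reporters in opposite ways. Cells were defined only by the activity of the reporter's promoter, and separate plantings are not named in the labels. The p-values thus measure only how far these 3 samples per group spread, and that spread may be technical. Of 9 genes listed as markers of the quiescent centre and its niche, 5 were measured. All 5 passed as higher in WOX5 arrays, as did 14.3% of all probe sets. Of 9 xylem genes, only 2 were measured. PHV passed as lower in WOX5 arrays, as did 9.49% of all probe sets, and LHW did not pass. Of 4 epidermis and root hair genes, only EXPA7 was measured. It read 36.4, 28.8 and 61.6 on WOX5 arrays and 187, 98.9 and 57.4 on TMO5 arrays, all 3 of these above background. The groups overlapped and it did not pass (limma adjusted p = 0.11). No listed gene of root cap, endodermis or phloem was measured. The WOX5 and TMO5 transcripts themselves were not analysed here.

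Plastids keep a small genome of cyanobacterial origin that encodes part of the photosynthetic apparatus, part of the plastid ribosome and the core of a bacterial-type RNA polymerase. A nuclear-encoded phage-type polymerase transcribes housekeeping genes, with the rpoB operon and accD as known examples, and the bacterial-type polymerase transcribes most photosynthesis genes. Root plastids are not green, and their housekeeping functions, such as fatty acid and amino acid synthesis, still need plastid translation. Plastid transcripts carry no stable poly(A) tail, whereas the standard Affymetrix labelling protocols prime from oligo(dT), so an intensity here is not a direct measure of transcript number. In bulk samples, fewer cells of a type and less RNA per cell cannot be told apart.

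Some properties of the arrays bear on all values below. The deposited intensities had a common trimmed mean on all 6 arrays, with medians of 91.6 to 92.5 on WOX5 arrays and 68.1 to 74.6 on TMO5 arrays. The bioB hybridisation control averaged 32.5 to 35.2 on WOX5 arrays and 376 to 397 on TMO5 arrays. The GAPDH 3′ to 5′ ratio was 1.92 to 2.0 on WOX5 arrays and 3.58 to 3.79 on TMO5 arrays. The same ratio overlapped between groups for actin, at 3.05 to 3.73 on WOX5 and 2.76 to 3.31 on TMO5 arrays. It also overlapped for ubiquitin, at 1.46 to 1.82 on WOX5 and 1.64 to 1.86 on TMO5 arrays. The labels name a labelling protocol with 1 amplification cycle and another with 2, without saying which of these arrays had which. The part of these differences in the results was not tested, and each reporter was used on its own arrays, so array handling and cell type cannot be told apart. Each array's background level, taken at percentile 95 of its 27 bacterial controls, was 25.2 to 40.0 intensity units on WOX5 arrays and 24.8 to 28.7 on TMO5 arrays. Of the 69 plastid genes, 67 lay above background on all 6 arrays, 2 (ndhH and petD) on 5 arrays, and all 69 passed a filter on dim probe sets.

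One array stood apart for these genes. TMO5 replicate 3 was the lowest of the 3 TMO5 arrays for 63 of the 69 plastid genes (91.3%), against 36.1% of all probe sets. Relative to each gene's own mean over 6 arrays, the median log2 intensity of the 69 genes was -0.01, -0.03 and -0.13 on WOX5 replicates 1, 2 and 3, and 0.13, 0.35 and -0.33 on TMO5 replicates 1, 2 and 3. The median SD between arrays of a group was 0.19 on the log2 scale in WOX5 and 0.35 in TMO5 for the plastid genes, against 0.32 and 0.25 for all probe sets.

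**Figure D1:**
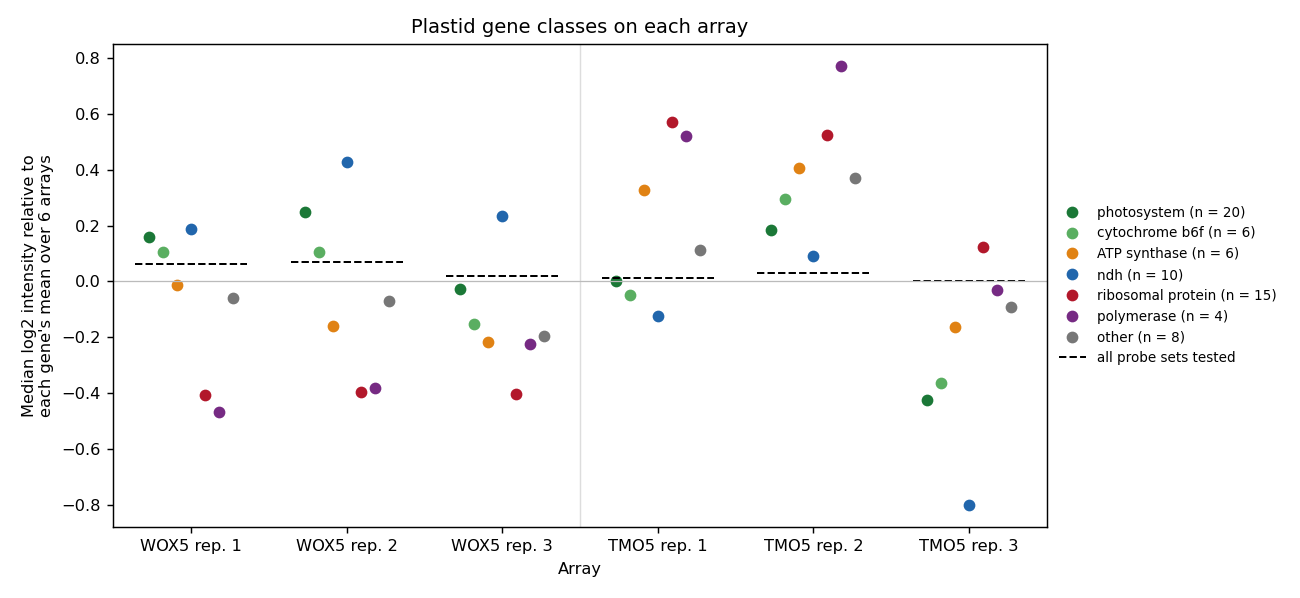
Median log2 intensity of each plastid gene class on each of the 6 arrays, relative to each gene's mean over the arrays; circles are class medians (n is the number of genes) and dashed bars the median of all probe sets tested. Ribosomal protein genes had medians of -0.41 to -0.40 in WOX5 and 0.12 to 0.57 in TMO5, and TMO5 replicate 3 was low for every class relative to the other TMO5 arrays.

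The comparison was WOX5 minus TMO5, on log2 intensities, with limma across all 22746 probe sets and Benjamini-Hochberg adjustment at 0.05; a gene is said to be lower or higher only where it passed. In WOX5 cells 11 of the 69 plastid genes were lower (15.9%), against 9.49% of all probe sets. None was higher, against 14.3% of all probe sets, while 23.8% of all probe sets passed in either direction. At an unadjusted p under 0.05, 20 of the 69 plastid genes were lower and 7 of the 69 higher. Over all 22746 probe sets these counts were 3938 (17.3%) and 4796 (21.1%). All WOX5 arrays lay below all TMO5 arrays for 22 of the 69 plastid genes and above them for 14 of the 69. Over all 22746 probe sets these counts were 5093 (22.4%) and 5541 (24.4%). Of the 11 falls, 7 were in ribosomal protein genes (rpl36, rps2, rpl32, rps19, rps18, rps3 and rpl14), and the others were rpoC2, matK, psaI and cemA. The fall was at least 2-fold for 7 of these genes. The median log2 difference of all 69 genes was -0.08, beside 0.03 for all probe sets.

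The count depended on how the arrays were scaled, on how the spread was modelled and on single arrays. Falls numbered 19 with a filter on dim probe sets, 19 with a floor at the 20th percentile of each array and 21 when variances were robust and followed an intensity trend, and rises then numbered 5, 4 and 6. With arrays centred on their medians there were 28 falls and 0 rises, and with quantile normalization 12 falls and 1 rise, of ndhI. Calls over all probe sets moved too. There, falls went from 2159 to 3397 (of 15179) with the filter, 3247 with the floor and 3314 with the trend. Centred arrays gave 5297 and quantile normalization 2866. Rises over all probe sets went from 3252 to 4006, 4065, 4102, 2241 and 2565, in the same order. Plastid falls numbered 6 without WOX5 replicate 3, 5 without TMO5 replicate 1 and 5 without TMO5 replicate 2, and 13 without TMO5 replicate 3. Over all 22746 probe sets, falls with these arrays left out numbered 1255, 835, 726 and 870. Of the 11 genes, rpl36, rps2 and rpoC2 passed as lower under all 13 alternatives.

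**Figure D2:**
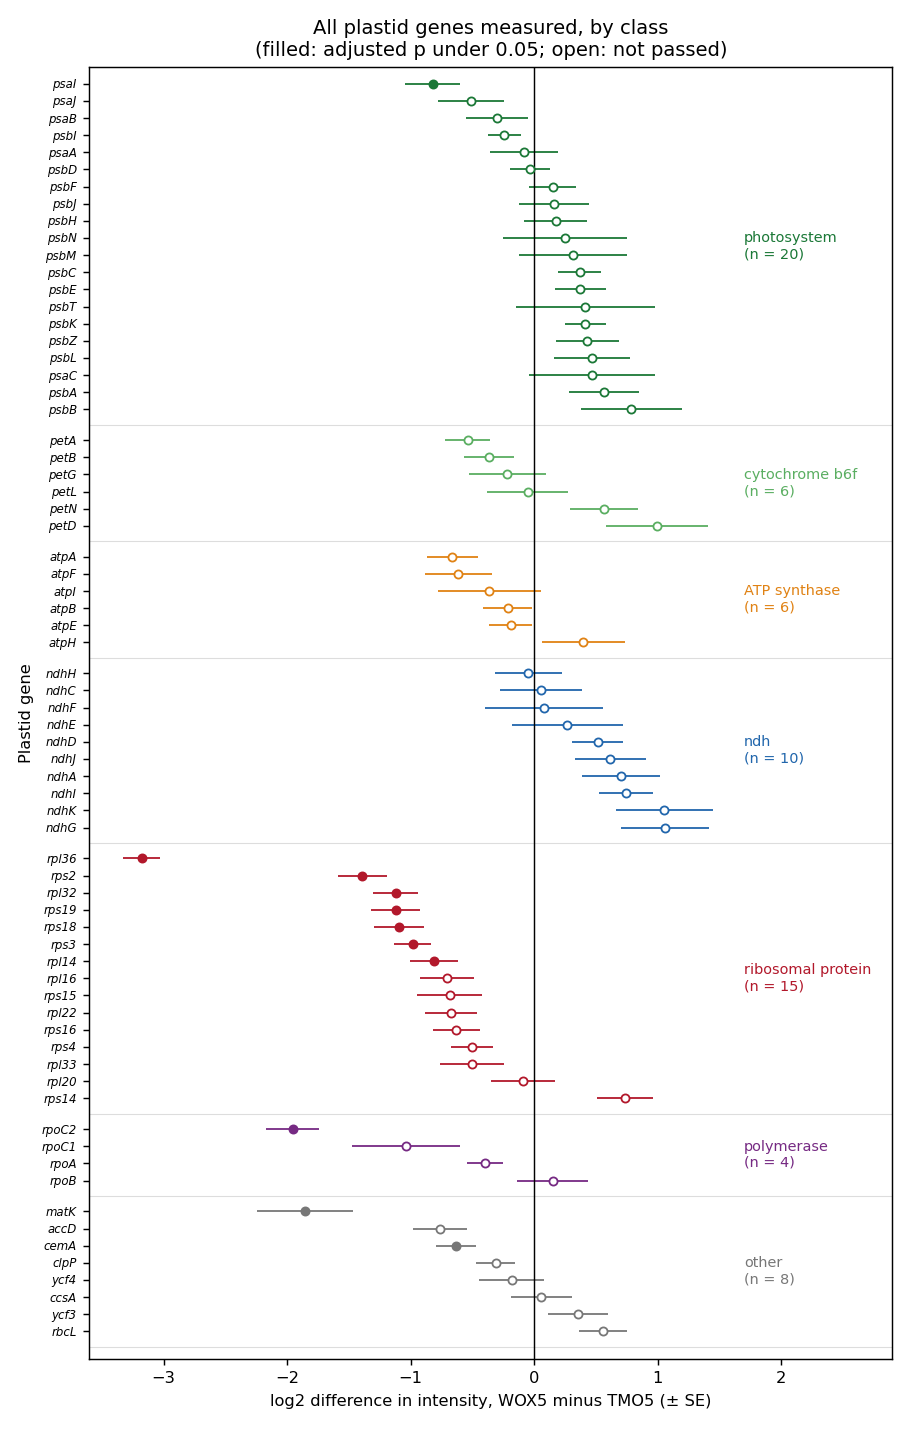
Log2 difference in intensity (WOX5 minus TMO5, ± SE, 3 arrays per group) of all 69 plastid genes, grouped by class; filled circles passed the threshold and open circles did not. Ribosomal protein genes lie to the left of 0 except rps14, and ndh genes to the right of 0 except ndhH.

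The ribosomal protein genes encode parts of the small (rps) and large (rpl) subunits of the plastid ribosome. In WOX5 cells 7 of the 15 were lower (46.7%, against 9.49% of all probe sets) and 0 were higher, with a median log2 difference of -0.70. The difference was negative for 14 of the 15 genes, and for 12 of them every WOX5 array lay below every TMO5 array, as for 22.4% of all probe sets. The class median stayed below 0 under each of the 13 alternatives, and was -0.66 with quantile normalization, -1.08 with centred arrays and -0.95 without TMO5 replicate 3. Falls in the class numbered 13 with centred arrays, 12 with the intensity trend, 11 with the filter or the floor, and 4 without either TMO5 replicate 1 or TMO5 replicate 2.

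The gene that differed most was rpl36, which encodes a small protein of the large subunit. Its intensity was 1076, 986 and 983 in WOX5 cells and 8992, 10138 and 8480 in TMO5 cells. The groups were far apart and the arrays of each group close together. The means were 1015 ± 52.5 in WOX5 and 9203 ± 849 in TMO5 cells (SD, n = 3 each), a 9.05-fold lower value in WOX5 cells (log2 difference -3.18 ± 0.15 SE, limma adjusted p = 0.00079).

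Other large-subunit genes fell less. The rpl32 probe set read 841, 1034 and 977 in WOX5 and 2248, 2244 and 1733 in TMO5 cells, and was 2.17-fold lower (limma adjusted p = 0.011). The rpl14 probe set read 2810, 3317 and 2560 in WOX5 and 5656, 5489 and 4149 in TMO5 cells, and was lower in WOX5 cells (log2 difference -0.81, limma adjusted p = 0.037). Neither pair of groups overlapped, but rpl14 lost its call with quantile normalization (log2 difference -0.40, limma adjusted p = 0.24) and without WOX5 replicates 1 or 3 or TMO5 replicates 1 or 2 (adjusted p up to 0.12). The remaining large-subunit genes did not pass. Differences were -0.70 for rpl16 and -0.67 for rpl22, whose groups did not overlap and which passed as lower under 6 and 4 of 13 alternatives, and -0.50 for rpl33 and -0.09 for rpl20, whose groups did.

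Among the small-subunit genes, rps2 read 355, 508 and 389 in WOX5 and 1228, 1039 and 998 in TMO5 cells. Its means of 418 ± 80.4 and 1089 ± 123 (SD, n = 3) gave a 2.63-fold lower value in WOX5 cells (limma adjusted p = 0.0075). The rps19 values were 1551, 2015 and 1546 in WOX5 and 4092, 3955 and 3069 in TMO5 cells, 2.17-fold lower (limma adjusted p = 0.015). TMO5 replicate 3 was the lowest TMO5 array for both genes, yet still lay above every WOX5 array.

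The rps18 values were 141, 109 and 149 in WOX5 and 329, 277 and 244 in TMO5 cells, 2.13-fold lower (limma adjusted p = 0.017). The rps3 values were 2770, 2636 and 2964 in WOX5 and 5459, 6051 and 5044 in TMO5 cells, 1.97-fold lower (limma adjusted p = 0.0091). No WOX5 array reached the TMO5 range for either gene. The call of rps19 was lost without WOX5 replicates 1 or 3 or TMO5 replicates 1 or 2 (limma adjusted p up to 0.060), and that of rps18 without TMO5 replicates 1 or 2 (limma adjusted p up to 0.061).

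The other small-subunit genes did not pass. The groups of rps16, rps15 and rps4 did not overlap, with log2 differences of -0.63, -0.68 and -0.51. Of 13 alternatives, rps16 passed as lower under 6, and rps15 and rps4 under 4 each. The exception in direction was rps14, at 118, 104 and 98.8 in WOX5 and 64.6, 82.2 and 49.8 in TMO5 cells. All 3 WOX5 arrays lay above all 3 TMO5 arrays, and the log2 difference of 0.73 ± 0.23 (SE) did not pass (limma adjusted p = 0.068), although it did with the filter, the floor and the intensity trend (lowest adjusted p 0.025).

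**Figure D3:**
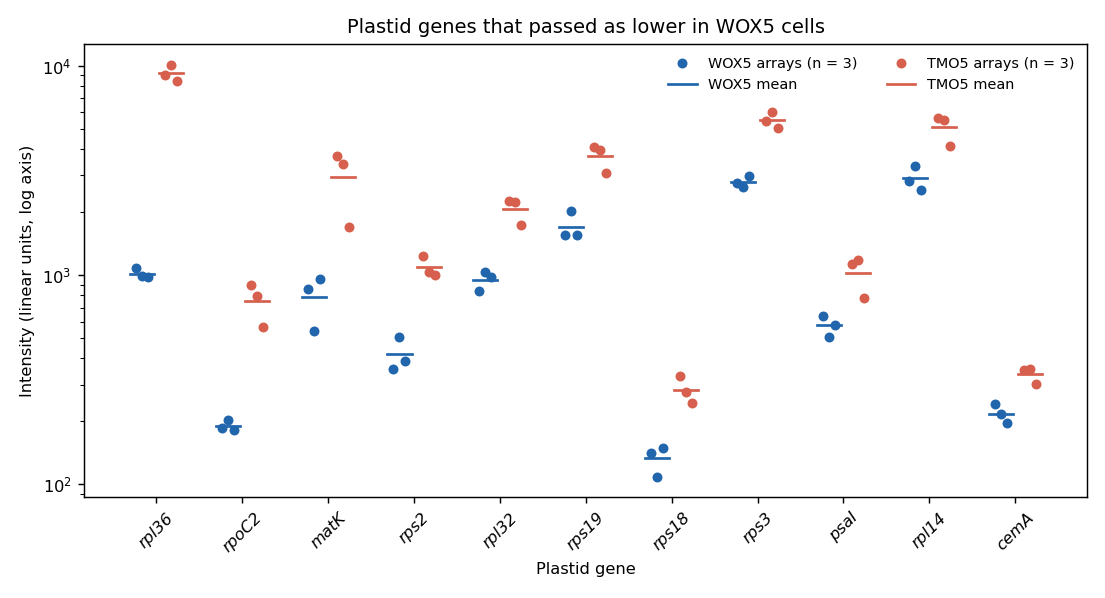
Intensity on each array (points) and group means (bars) of the 11 plastid genes that passed as lower in WOX5 cells, on a log axis, with WOX5 left of TMO5 for each gene. No WOX5 array reached the TMO5 range for any of the 11 genes, and rpl36 shows the widest gap, at 1015 against 9203.

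The 4 polymerase genes encode the core of the bacterial-type enzyme, with rpoA for the alpha subunit, rpoB for beta, and rpoC1 and rpoC2 for the pair of chains that replace bacterial beta prime. They did not move as a block, since 1 was lower (25%, against 9.49% of all probe sets), 0 were higher and 3 did not pass. The rpoC2 values were 185, 204 and 182 in WOX5 and 892, 794 and 564 in TMO5 cells. The means of 190 ± 12.2 and 750 ± 168 (SD, n = 3) differed by 3.87-fold, lower in WOX5 cells (limma adjusted p = 0.0037).

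The rpoC1 values were 245, 288 and 320 in WOX5 and 796, 835 and 296 in TMO5 cells. TMO5 replicate 3 alone lay within the WOX5 range, and the log2 difference of -1.04 ± 0.44 (SE) did not pass (limma adjusted p = 0.15). Without TMO5 replicate 3 it was -1.53 and passed (limma adjusted p = 0.017), as it did with centred arrays (0.048) and the intensity trend (0.039).

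The rpoA values were 2799, 2682 and 3010 in WOX5 and 3396, 3825 and 3956 in TMO5 cells. The groups did not overlap, and the log2 difference of -0.40 ± 0.15 (SE) did not pass (limma adjusted p = 0.11). It passed as lower with centred arrays, the filter, the floor and the intensity trend, and its difference was -0.0017 with quantile normalization. For rpoB the values were 115, 142 and 148 in WOX5 and 97.8, 180 and 100.2 in TMO5 cells, so the groups overlapped (0.15 ± 0.29, and -0.20 with quantile normalization). The median of the 4 genes was -0.72, and remained below 0 under every alternative run.

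Among the 8 genes outside these classes, matK and cemA were lower in WOX5 cells (25%, against 9.49% of all probe sets). The matK product is a maturase that helps splice group II introns of plastid transcripts. It read 862, 544 and 961 in WOX5 and 3697, 3406 and 1691 in TMO5 cells, a 3.62-fold lower value in WOX5 cells (limma adjusted p = 0.024). All WOX5 arrays were below all TMO5 arrays, but the call was lost when any 1 array other than TMO5 replicate 3 was left out (limma adjusted p from 0.0501 to 0.081).

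The cemA product is a protein of the plastid envelope, and its gene read 242, 217 and 196 in WOX5 and 354, 357 and 302 in TMO5 cells. It was 1.55-fold lower in WOX5 cells (limma adjusted p = 0.042), and this call was lost when any 1 array was left out (limma adjusted p up to 0.13). The accD gene, for a subunit of acetyl-CoA carboxylase in fatty acid synthesis, read 442, 290 and 296 in WOX5 and 586, 608 and 516 in TMO5 cells. Its groups did not overlap either, and its difference of -0.76 ± 0.22 (SE) did not pass (limma adjusted p = 0.057), although it did without WOX5 replicate 1 (0.035) and with the filter, the floor, the intensity trend and centred arrays.

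For clpP, which encodes a protease subunit, values were 3958, 4528 and 4066 in WOX5 and 4968, 5902 and 4763 in TMO5 cells. The log2 difference of -0.31 ± 0.16 (SE) did not pass. It turned to 0.099 with quantile normalization and passed as lower with centred arrays (-0.69, limma adjusted p = 0.026). For rbcL, the large subunit of Rubisco, values were 386, 351 and 393 in WOX5 and 256, 313 and 209 in TMO5 cells. All WOX5 arrays were above all TMO5 arrays, and the difference of 0.55 ± 0.20 (SE) did not pass (limma adjusted p = 0.095), although it did with the filter, the floor and the intensity trend (lowest adjusted p 0.029). The remaining 3 genes were ycf3 and ycf4, which act in photosystem I assembly, and ccsA, for cytochrome c maturation, with differences of 0.36, -0.18 and 0.06 and overlapping groups.

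The ndh genes encode subunits of the plastid NDH complex, which carries electrons around photosystem I. None of the 10 passed in either direction, while 4 had an unadjusted p under 0.05, all higher in WOX5 cells, against 21.1% of all probe sets. The difference was positive for 9 of the 10 genes, and for 6 of them every WOX5 array lay above every TMO5 array, as for 24.4% of all probe sets. The class median was 0.56, or 0.26 after quantile normalization, 0.19 on centred arrays and 0.36 without TMO5 replicate 3. TMO5 replicate 3 was the lowest TMO5 array for 9 of the 10 genes.

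The ndhI values were 2107, 2442 and 1961 in WOX5 and 1534, 1405 and 1004 in TMO5 cells. The groups were apart, and the difference of 0.74 ± 0.22 (SE) missed the threshold (limma adjusted p = 0.060). It passed as higher with quantile normalization, the filter, the floor and the intensity trend, with limma adjusted p from 0.0090 to 0.038.

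The ndhG values were 135, 216 and 149 in WOX5 and 70.5, 122 and 55.3 in TMO5 cells, a difference of 1.06 ± 0.36 (SE). The ndhK values were 163, 128 and 112 in WOX5 and 95.4, 73.9 and 37.0 in TMO5 cells, a difference of 1.05 ± 0.39 (SE). These were the largest positive differences among the 69 genes and neither passed (limma adjusted p = 0.085 and 0.11). Without TMO5 replicate 3 they were 0.81 and 0.66. With the filter or the intensity trend both passed as higher, and ndhG also did with the floor and without TMO5 replicate 2 (limma adjusted p = 0.048 in each case). The ndhA, ndhD and ndhJ genes, also with groups that did not overlap, had differences of 0.70, 0.51 and 0.62. The ndhC, ndhE, ndhF and ndhH genes lay between -0.05 and 0.27.

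The photosystem genes gave 1 fall (5%, against 9.49% of all probe sets) and 0 rises (against 14.3%) among 20, and 19 did not pass. The fall was of psaI, for a small subunit of photosystem I, at 641, 506 and 580 in WOX5 and 1126, 1187 and 775 in TMO5 cells. It was 1.77-fold lower in WOX5 cells with an adjusted p close to the threshold (limma adjusted p = 0.049), and lost the call with quantile normalization (0.053) and when any 1 array other than TMO5 replicate 3 was left out (up to 0.14). The 5 psa genes had a median of -0.30, and the 15 psb genes, for photosystem II, a median of 0.37. The class median of 0.28 was 0.05 with quantile normalization, -0.10 with centred arrays and 0.07 without TMO5 replicate 3, so its direction is not settled.

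The reaction-centre gene psbA, for the D1 protein, read 118, 135 and 109 in WOX5 and 102, 96.1 and 54.6 in TMO5 cells. The WOX5 arrays were all above the TMO5 arrays by a narrow margin, and the difference of 0.57 ± 0.28 (SE) did not pass, and was 0.28 without TMO5 replicate 3. The psbK values were 1042, 1172 and 967 in WOX5 and 869, 816 and 703 in TMO5 cells, and those of psbC, for an antenna protein of photosystem II, were 189, 173 and 143 in WOX5 and 133, 139 and 117 in TMO5 cells. Neither gene had overlapping groups, and their differences of 0.42 and 0.37 did not pass (limma adjusted p = 0.12 and 0.18), although psbK did with the intensity trend (0.044). For psaA, a reaction-centre protein of photosystem I, the values of 38.2, 55.6 and 34.4 in WOX5 and 39.6, 58.8 and 37.3 in TMO5 cells lay close to background and overlapped.

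A group of photosystem and ndh genes varied most within the TMO5 arrays. The psaC gene, for an iron-sulfur protein of photosystem I, read 120, 108 and 130 in WOX5 and 61.1, 193 and 54.0 in TMO5 cells. The psbT gene read 109, 99.8 and 137 in WOX5 and 49.3, 205 and 62.3 in TMO5 cells. On TMO5 replicate 2 both lay above every WOX5 array and on the other TMO5 arrays below every WOX5 array. The ndhE gene had the same ordering, at 117, 106 and 108 in WOX5 and 68.5, 185 and 60.5 in TMO5 cells. TMO5 replicate 2 also lay above every WOX5 array for psbN and ndhF, at 170 and 188. Without TMO5 replicate 2, psaC passed as higher in WOX5 cells (limma adjusted p = 0.036).

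The cytochrome b6f and ATP synthase genes gave no call in either direction, with 6 genes each. At an unadjusted p under 0.05, 1 gene of each complex was lower in WOX5 cells and 0 were higher. The shares of all probe sets were 17.3% and 21.1%. The petA gene, for cytochrome f, read 537, 583 and 449 in WOX5 and 823, 793 and 661 in TMO5 cells, without overlap (-0.54 ± 0.18 SE, limma adjusted p = 0.082). It passed as lower with centred arrays, the filter, the floor, the intensity trend and array weights. The petD gene, for subunit IV, ran the other way at 104, 50.8 and 49.4 in WOX5 and 40.4, 39.2 and 20.8 in TMO5 cells, also without overlap, and its difference of 0.99 ± 0.42 (SE) did not pass, and was 0.68 without TMO5 replicate 3. The small-subunit gene petN read 312, 201 and 193 in WOX5 and 149, 198 and 127 in TMO5 cells, overlapping at a single array. The petB, petG and petL genes lay between -0.37 and -0.05.

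In the ATP synthase, atpA, for the alpha subunit, read 684, 558 and 588 in WOX5 and 1085, 1069 and 764 in TMO5 cells. The groups did not overlap, and the difference of -0.66 ± 0.20 (SE) did not pass (limma adjusted p = 0.067), although it did with centred arrays, the filter, the floor and the intensity trend (lowest adjusted p 0.012). The atpB gene, for beta, read 3474, 3552 and 3201 in WOX5 and 4370, 4537 and 3107 in TMO5 cells, and overlapped through TMO5 replicate 3, and its difference of -0.21 turned to 0.18 with quantile normalization. The atpF gene, for a stalk subunit, read 74.9, 119 and 103 in WOX5 and 157, 184 and 114 in TMO5 cells, and atpH, for the membrane ring, 291, 265 and 182 in WOX5 and 184, 264 and 126 in TMO5 cells. Their groups overlapped, and their differences of -0.61 and 0.40 did not pass, with 0.13 for atpH without TMO5 replicate 3. The atpF gene passed as lower with quantile normalization (-0.98, limma adjusted p = 0.044) and with centred arrays (-0.99, 0.035). The atpE and atpI genes had differences of -0.19 (0.28 with quantile normalization) and -0.36. The medians were -0.13 for cytochrome b6f (0.14 without TMO5 replicate 2) and -0.29 for the ATP synthase, or -0.55 without TMO5 replicate 3.

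**Figure D4:**
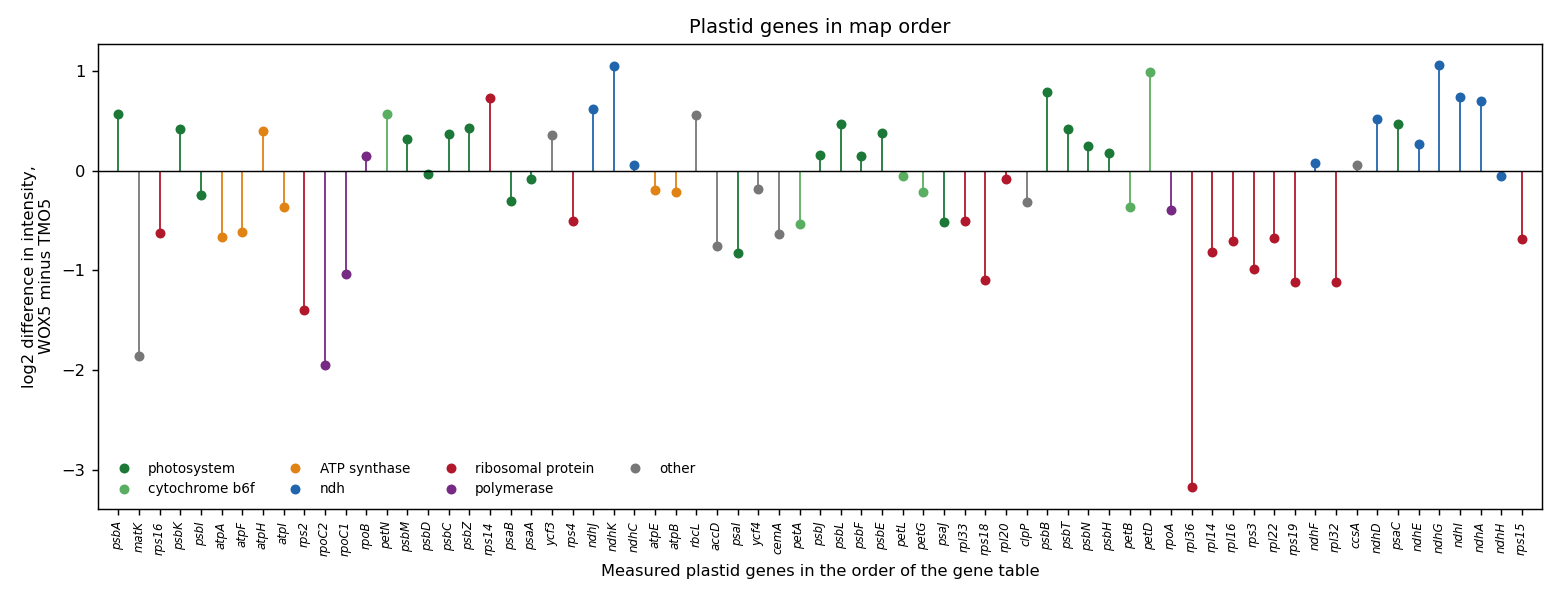
Log2 difference in intensity (WOX5 minus TMO5) of the 69 plastid genes in the order in which the gene table places them along the plastid genome, coloured by class. The run of measured ribosomal protein genes next to rpoA is negative throughout. The nearest measured genes to rpl36, at -3.18, are rpoA at -0.40 and rpl14 at -0.81.

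Plastid genes are mostly transcribed together with their neighbours and then processed, so the values were also read in map order. Neighbouring measured genes differed from each other by a median of 0.45 in their log2 differences over 68 pairs, against 0.66 over all 2346 pairs. Neighbours can share transcripts, so these pairs are not independent. For 11 well-known transcription units with 45 of the genes, written down after the values had been seen, the values are given here as a description.

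The long ribosomal protein cluster with rps19, rpl22, rps3, rpl16, rpl14, rpl36 and rpoA was negative at each of these 7 genes, and 4 passed as lower. Without rpl36 its differences ran from -1.12 to -0.40, so rpl36 stood far below the nearest measured genes on either side. The locus tags of rpoA, rpl36 and rpl14 are not consecutive, so these may not be its direct neighbours. The unit of psbE, psbF, psbL and psbJ was positive at all 4 genes, between 0.15 and 0.47, and atpB and atpE were alike at -0.21 and -0.19. The unit of psaI, ycf4, cemA and petA was negative at all 4 genes, from -0.82 to -0.18. The ndhC, ndhK and ndhJ unit was positive throughout, from 0.06 to 1.05. Both rpl33 and rps18 were negative, at -0.50 and -1.09, and rps18 passed as lower.

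Other units were not uniform. The rpoB, rpoC1 and rpoC2 unit ran from 0.15 at rpoB, its first gene, to -1.95 at rpoC2, its last. In the unit of rps2 with atpI, atpH, atpF and atpA, only rps2 passed as lower, at -1.39, and atpH stood at 0.40. The psbB unit held psbB at 0.79 and petD at 0.99 but petB at -0.37. The psaA, psaB and rps14 unit ran from -0.30 at psaB to 0.73 at rps14, and no gene of it passed. The unit with psaC and 5 ndh genes ended in the ribosomal protein gene rps15 at -0.68, whereas psaC and those ndh genes ran from -0.05 to 1.06.

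Brightness moved with the difference. Over the 69 genes, the Spearman correlation between mean log2 intensity and log2 difference was -0.49, against -0.10 over all probe sets, so brighter plastid probe sets tended to be lower in WOX5 cells. It was -0.50 within the 15 ribosomal protein genes and -0.35 within the other 54. These correlations are across genes, which share arrays and transcripts, and the part of brightness in the differences was not tested.

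Plastid complexes also need nuclear genes, of which 168 were listed in 8 groups and 30 had a named probe set. Among 10 measured genes for nuclear-encoded plastid ribosomal proteins, 1 was lower (10% of them, against 9.49% of all probe sets), 0 were higher and 9 did not pass, with a median of -0.14. The groups did not overlap for 7 of the 10, with WOX5 below for 4 and above for 3. The shares of all probe sets were 22.4% below and 24.4% above. The 1 fall was of AT2G43030 (PRPL3), for protein L3 of the plastid ribosome, at 852, 648 and 677 in WOX5 and 1167, 1128 and 1061 in TMO5 cells. It was 1.55-fold lower (limma adjusted p = 0.046), with groups that did not overlap. The call was lost with quantile normalization (0.067), with a replicate block in the fit (0.12) and on leaving out any 1 array (up to 0.13). The phage-type polymerase RPOTmp (AT5G15700), shared by mitochondria and plastids, was the 1 measured gene of 8 in its list and did not pass, at 90.1, 58.7 and 142 in WOX5 and 146, 133 and 184 in TMO5 cells.

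Of 7 nuclear photosystem and light-harvesting genes, only 1 passed, as higher in WOX5 cells (14.3%, against 14.3% of all probe sets). This was LHCB4.1, an antenna protein of photosystem II. It read 90.6, 112 and 88.4 in WOX5 and 62.0, 41.5 and 36.7 in TMO5 cells, a 2.12-fold difference (limma adjusted p = 0.031). The call was lost with quantile normalization (0.069), with centred arrays (0.061) and with a replicate block in the fit (0.088). It was also lost when any 1 array other than TMO5 replicate 1 was left out (up to 0.10). The difference was positive for 6 of the 7 genes, with a median of 0.68. PSBY, a small protein of photosystem II, was the 1 negative gene, at 23.4, 14.6 and 26.8 in WOX5 and 55.4, 44.5 and 35.7 in TMO5 cells. Its groups did not overlap, and it did not pass (log2 difference -1.09, limma adjusted p = 0.0503). Only 1 of its 3 WOX5 arrays was above background, so the size of this difference is uncertain. None of 4 measured partners of cytochrome b6f, ATP synthase, Rubisco and NDH passed by limma, 0 had an unadjusted p under 0.05, and NDHL, with the smallest p, lay within background on all 6 arrays.

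Of 3 chlorophyll synthesis genes, CHLI2 and CHLM passed as higher in WOX5 cells (66.7%, against 14.3% of all probe sets) and PORB did not. CHLM, a methyltransferase, read 112, 135 and 89.0 in WOX5 and 44.7, 46.0 and 53.8 in TMO5 cells, a log2 difference of 1.2 ± 0.21 (SE, limma adjusted p = 0.013). It lost its call without TMO5 replicates 1 or 2 (0.051 and 0.054) and with a replicate block in the fit (0.070). CHLI2, a subunit of magnesium chelatase, was within background on the TMO5 arrays and at least 2.07-fold higher (limma adjusted p = 0.014).

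The 3 measured genes of starch synthesis, which takes place in plastids, all passed as higher in WOX5 cells, as did 14.3% of all probe sets. APL4, for a large subunit of ADP-glucose pyrophosphorylase, read 357, 789 and 316 in WOX5 and 23.5, 27.6 and 12.2 in TMO5 cells, where 1 of 3 arrays was above background. It passed with a limma adjusted p of 0.0034, and no fold is given, since most TMO5 values were within background. SBE2.2, a starch branching enzyme, read 674, 1016 and 822 in WOX5 and 185, 157 and 195 in TMO5 cells, 4.63-fold higher (limma adjusted p = 0.0024). Of 2 genes of plastid division, 1 passed as lower in WOX5 cells (50%, against 9.49% of all probe sets). This was FTSZ2-1, for a protein of the division ring, at 497, 436 and 486 in WOX5 and 628, 728 and 724 in TMO5 cells. That difference was 1.47-fold (limma adjusted p = 0.049). It lost the call with a replicate block in the fit (0.15) and when any 1 array was left out (up to 0.15). The other, FTSZ2-2, ran the opposite way at 172, 245 and 161 in WOX5 and 97.0, 94.6 and 139 in TMO5 cells, without overlap, and did not pass (log2 difference 0.80, limma adjusted p = 0.072).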

How the data were processed

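Per the labels' protocols, total RNA from 6 samples of sorted root cells received a biotin label for Affymetrix arrays. For 22810 probe sets the authors deposited linear intensity values, made by software not given in the sources used here. From these deposited intensity values, log2 was taken after raising values under 1 to 1 (1036 values), with no further normalization. The 64 control probe sets were left out. Groups were compared with limma 3.58.1 (lmFit and eBayes) in R 4.3.3, with Benjamini-Hochberg adjustment over 22746 probe sets, and the fit was tested on simulated data. The number of arrays limits the precision. Names came from the platform annotation joined by gene ID to the TAIR10.1 gene table, so that 13513 probe sets had 1 gene, 503 had several and 8730 had none. No coordinates are printed, since no build of the probes was given.

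The members and lists were chosen with earlier results of these data known. Named genes are the 3 largest called differences per class, or the smallest p, core genes, and per nuclear list the largest rises and falls that passed. Other members, PSBY and FTSZ2-2 were named after their values were seen. Of the core genes, ycf1, ycf2 and ndhB lie on probe sets with 2 gene records. Mitochondrially encoded genes were not counted, because no locus matched. Lower bounds set the brighter group against the background level. Alternatives were quantile normalization, arrays centred on medians, a floor at the 20th percentile, a filter on dim probe sets, an intensity trend with robust variances, array weights, a replicate block and each array left out. Each member had 1 probe set, so averaging probe sets changed nothing and was not run.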

Additional observations from a re-analysis of the deposited data

How the results depend on the processing

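Calls over all probe sets numbered 5411, 2270 with a replicate block and 2827 to 4854 with 1 array left out. They numbered 7538 with centred arrays, 7312 with the floor, 7416 with the trend and 7403 of 15179 with the filter. Plastid falls (11) numbered 28 with centred arrays, 19 with the floor, 19 with the filter, 21 with the trend, 3 with a replicate block and 5 to 13 with 1 array left out. Plastid rises (0) numbered 1 with quantile normalization, 4 with the floor, 5 with the filter, 6 with the trend and 0 to 2 with 1 array left out. Ribosomal protein falls (7) numbered 13 with centred arrays, 11 with the floor, 11 with the filter, 12 with the trend, 2 with a replicate block and 4 to 9 with 1 array left out. The 3 plastid genes still lower with the replicate block were rpl36, rps2 and rpoC2. The labels do not say whether equal replicate numbers mark a shared batch, and this was not tested. Deviations of same-numbered arrays, over probe sets passing the dim filter, correlated at -0.06, 0.01 and 0.02. Replicate 3 was the lowest array of its group for 46.4% of plastid genes in WOX5 and 91.3% in TMO5. The shares of all probe sets were 33.2% and 36.1%.

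With centred arrays the median of all plastid genes was -0.46, and class medians were -0.10 for photosystems, -0.51 for cytochrome b6f, -0.67 for ATP synthase, 0.19 for ndh, -1.08 for ribosomal proteins, -1.09 for polymerase and -0.62 for others, while the median of all probe sets moved to -0.35 (-0.14 with quantile normalization). With 1 array left out the median of all plastid genes ran from -0.28 to 0.10, and class medians from 0.070 to 0.43 for photosystems, -0.35 to 0.14 for cytochrome b6f, -0.55 to -0.17 for ATP synthase, 0.36 to 0.74 for ndh, -0.95 to -0.59 for ribosomal proteins, -0.94 to -0.58 for polymerase and -0.35 to -0.069 for others. The cause of these shifts was not tested. Of 519 values for 40 named genes under 13 alternatives, 419 kept their side of the threshold, 38 gained a call, 62 lost one, and no called gene changed sign. Probe sets near background, such as those of psaA, ndhH and petD, are the least precise.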

Other observations

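The 8 probe sets that match 2 gene records of the plastid genome gave 0 calls in limma, against 23.8% of all probe sets. At an unadjusted p under 0.05, 2 of the 8 were lower in WOX5 cells and 0 were higher. The shares of all probe sets were 17.3% and 21.1%. Their log2 differences ran from -0.67 to 0.24 with a median of -0.31, and 7 of the 8 were negative.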
